A study of Rattus norvegicus with 6 samples.

Results

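The genes described here encode the parts, regulators and assembly factors of the proteasome. They were taken from the deposited table as every row whose symbol is Psma, Psmb, Psmc, Psmd, Psme, Psmf or Psmg followed by a number and whose normalised read count averaged at least 10 over the 6 libraries. Of 32883 gene rows, 49 matched the name pattern and 47 passed the mean. Psmb11, the beta subunit of the thymus, was left out with a mean of 4.54, and Psma8, a testis alpha subunit, with a mean of 0.146, while the lowest gene kept was Psmb8 with a mean of 24.8. Of the 47 genes, 46 are proteasome subunits, activators, an inhibitor or assembly chaperones, and the remaining one, Psmc3ip, encodes a factor of meiotic recombination that shares only the prefix of its symbol.

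RNA came from primary hippocampal cultures of Wistar rat pups at P0, and strand-specific libraries were made from polyadenylated RNA. In the cLTP group, long-term potentiation was induced chemically in 3 cultures at DIV13-15 (days in vitro) with 50 µM forskolin, 50 nM rolipram and 200 µM picrotoxin. Forskolin activates adenylyl cyclase, rolipram inhibits the Pde4 enzymes that break down cyclic AMP, and picrotoxin blocks GABA-A receptors. In the DMSO group, 3 control cultures received the same volume of the solvent, and the labels give no other treatment for either group. Such cultures hold neurons and glia together, the labels do not state the time to harvest, and they call the cultures biological replicates without saying whether these came from separate litters or days, so the p-values speak for the spread among these 6 cultures. In bulk RNA of mixed cells, fewer cells of a type and less RNA per cell cannot be told apart.

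The proteasome is the protease that removes most ubiquitin-tagged proteins from the cytosol and nucleus. Its 20S core is a barrel of alpha and beta subunits with the cutting sites on 3 of the beta subunits, and the 19S particle that caps it recognises, unfolds and feeds in the substrate with a ring of ATPases. In neurons the proteasome turns over synaptic proteins, and its activity is needed for lasting forms of synaptic plasticity. Other caps (PA28 and PA200) open the core without ATP, and inducible beta subunits replace the constitutive ones to form the immunoproteasome.

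The libraries held 10668973, 11792935 and 11673464 reads in cLTP 1, 2 and 3 and 11869519, 12776185 and 10988014 reads in DMSO 1, 2 and 3. The proteasome genes took 39842 to 49634 reads per library, which came to 3734, 3701 and 3844 RPM of the cLTP libraries and 3803, 3885 and 3914 RPM of the DMSO libraries. Even the scarcest of them had 19 to 30 reads in each library. Levels are normalised read counts, that is reads divided by 1 size factor per library and not by gene length, so they are compared between libraries and not between genes. Same-numbered libraries of the groups deviated together, but cultures 1 and 2 were told apart less clearly than culture 3. Culture 3 stood apart in both groups, with microglia markers summing to 470 in cLTP 3 and 444 in DMSO 3 against 3.38 and 5.18 in cLTP 1 and 2 and 17.1 and 7.90 in DMSO 1 and 2.

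None of the 47 genes passed the test of cLTP against DMSO (limma on log2(value + 1), Benjamini-Hochberg adjusted over 17315 genes, threshold 0.05), where 5.71% of all genes tested were called higher and 3.31% lower. On the recovered reads edgeR also called 0 of them, beside 11.5% of all genes, and DESeq2 called 0, beside 7.83%. At an unadjusted p under 0.05 there were 6 of the 47 proteasome genes in limma (12.8%), beside 21% of all genes. There were 8 in edgeR and 4 in DESeq2, for which the share of all genes was not counted. The intervals of most genes were narrow, and for 44 of the 47 the 95% interval of the fold change lay within 1.5-fold either way. The 3 genes whose interval reached 1.5-fold were the immunoproteasome genes Psmb8, Psmb9 and Psmb10. When the culture number entered limma as a block, 7 genes were called higher (Psma6, Psmb1, Psmb2, Psmb3, Psmb10, Psmd2 and Psmd13) and 1 lower (Psme4), which is 14.9% and 2.13% of the 47 beside 12.9% and 10.7% of all genes. The share called higher was thus close to that of all genes. The same 8 genes passed in edgeR with that block, where 15.4% of all genes were higher and 13.8% lower.

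**Figure D1:**
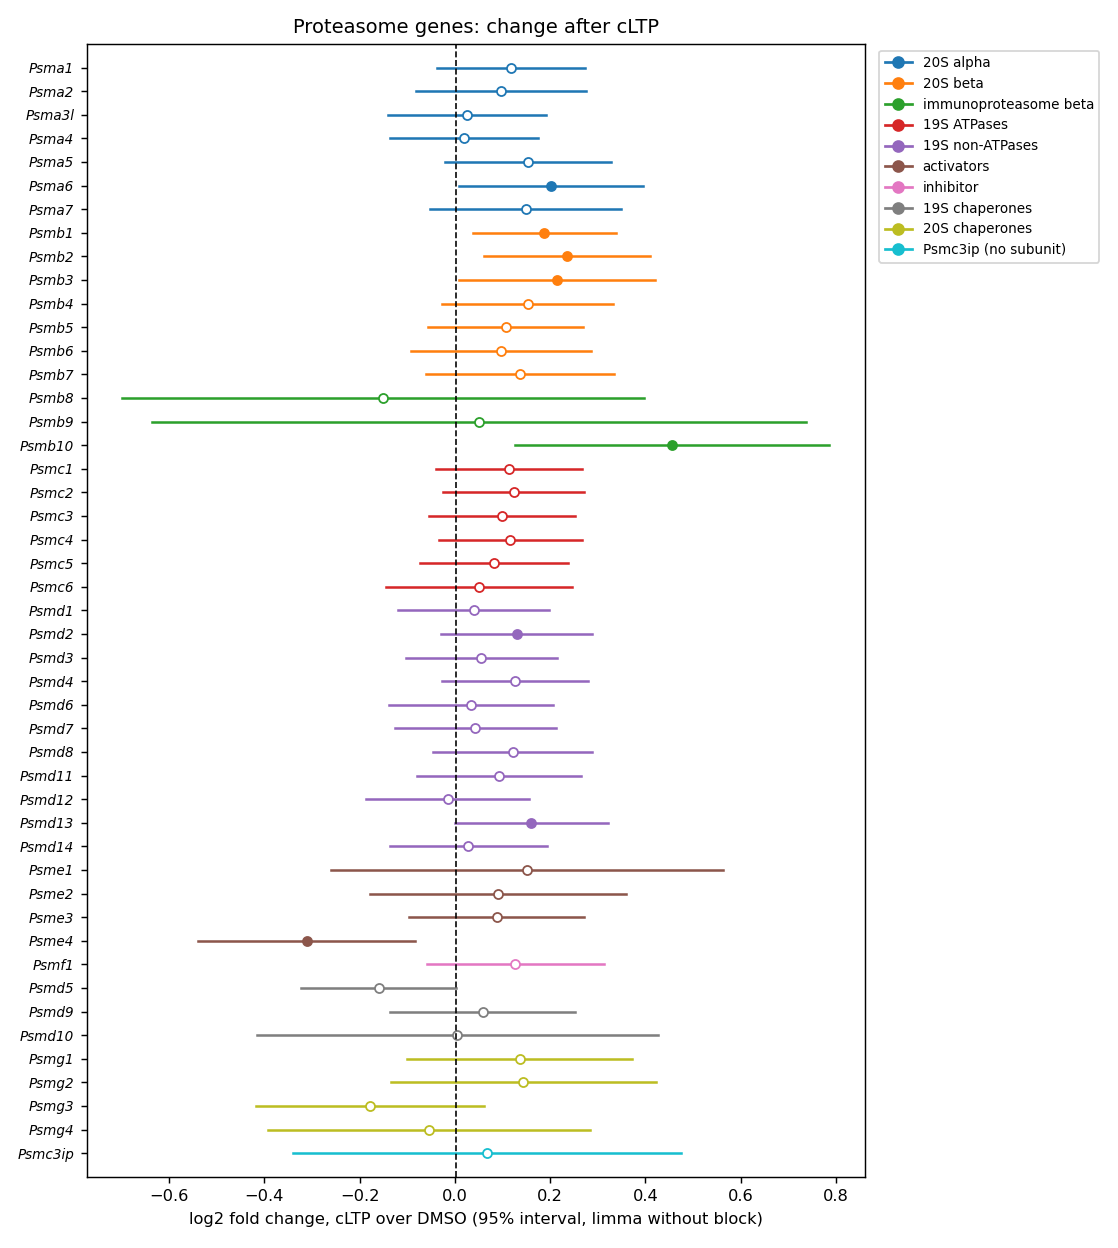
Log2 fold change of cLTP over DMSO on the horizontal axis for each of the 47 genes on the vertical axis, in colours by role, with points for the estimate and lines for the 95% interval of limma without a block. Filled points passed the threshold with the block, and the dashed line is the median of all genes tested. Most points lie a little right of that line, Psmb10 lies farthest right at 0.46 and Psme4 farthest left at -0.31.

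The differences were small and mostly had the same sign. The median log2 fold change of the 47 genes was 0.10 (1.07-fold), beside 0.00 over all genes tested, and 41 of the 47 lay above the median gene. All cLTP libraries lay above all DMSO libraries for 19 genes (40.4%, beside 15% of all genes), all lay below for 3 (6.38%, beside 13.3%), and the groups overlapped for 25. Within same-numbered cultures, 26 genes were higher in cLTP in all 3 (55.3%, beside 27.5% of all genes) and 4 were lower in all 3 (8.51%, beside 24.9%). Among the 4294 genes in the range of levels of the constitutive 20S and 19S genes, the upward shares were 22.5% and 40.5%. Their median log2 fold change was 0.04, so a part of the upward shift was shared by genes of like level. The median difference of the 47 genes within cultures 1, 2 and 3 was 0.10, 0.06 and 0.12 on the log2 scale. Such small differences depend on how libraries are scaled. With libraries scaled to equal totals the median of the proteasome genes was -0.02, that of all genes was -0.11, and 20 proteasome genes lay above 0. With quantile normalization the medians were 0.03 and -0.05 and 28 lay above 0. Relative to the median gene the proteasome median stayed at 0.09 with equal totals and was 0.08 with quantile normalization, beside 0.09 as deposited.

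**Figure D2:**
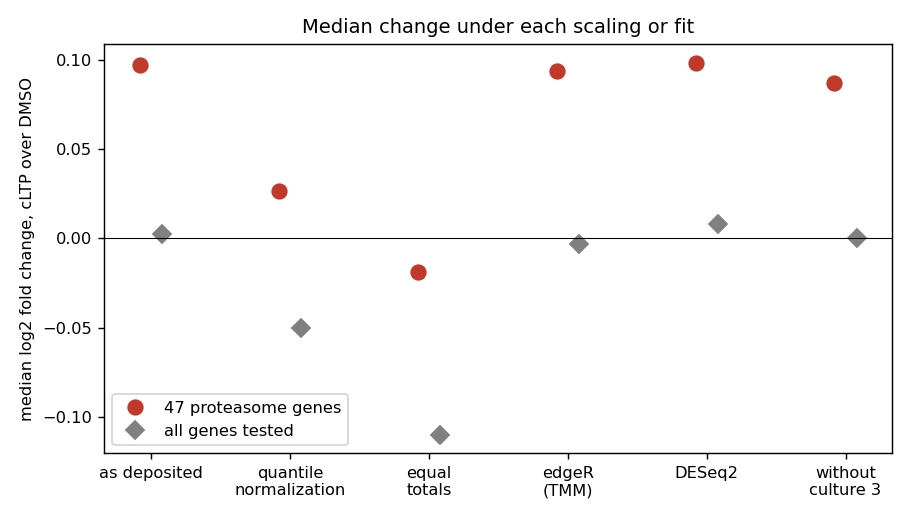
Median log2 fold change of cLTP over DMSO (vertical axis) for the 47 proteasome genes (red circles) and for all genes tested (grey diamonds), for each scaling or fit (horizontal axis). The sign of the proteasome median changes with equal totals, where it is -0.02, and it lies above the median of all genes in each setting shown.

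The 31 constitutive genes of the 20S core and the 19S particle differed little among themselves. Of these, 30 had a log2 fold change above 0 with the deposited scaling, their values lay between -0.01 and 0.24 with an SD of 0.06, and their median was 0.11 (1.08-fold). With equal totals that median was 0.00, beside -0.11 for all genes. In 18 of the 31 genes (58.1%) all cLTP libraries exceeded all DMSO libraries, and in 22 (71%) cLTP was higher in each culture pair. Among 4294 genes in the same range of levels these shares were 22.5% and 40.5%, and the median log2 fold change was 0.04 with the deposited scaling.

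The alpha subunits form the outer rings of the 20S core and its gate. The 7 genes had log2 fold changes between 0.02 and 0.20 with a median of 0.12. Psma6 had 1015, 1191 and 1069 normalised reads in the cLTP libraries and 962, 989 and 892 in the DMSO libraries. The groups did not overlap, and the log2 fold change was 0.20 (95% interval 0.01 to 0.39) with an adjusted p of 0.215 in limma and 0.0159 with the block. Psma6 has 5 pseudogenes in RefSeq, and reads shared with them cannot be assigned with certainty. Psma5 had 786, 741 and 818 in cLTP and 737, 682 and 688 in DMSO cultures, again without overlap, with a limma adjusted p of 0.303. Psma1 had 992, 979 and 1009 in cLTP and 882, 933 and 932 in DMSO cultures, and was the remaining alpha gene whose groups were apart. Psma7 had 1018, 1107 and 1254 in cLTP and 995, 1018 and 1024 in DMSO cultures, where the lowest cLTP library lay among the DMSO libraries. Psma2 overlapped at a log2 fold change of 0.10. Psma3l, which RefSeq lists as a synonym of Psma3, had 1649, 1577 and 1748 in cLTP and 1571, 1649 and 1668 in DMSO cultures, and Psma4 had 1018, 987 and 1037 in cLTP and 1024, 974 and 1005 in DMSO cultures. Both of these had log2 fold changes of 0.02, the smallest of the alpha genes.

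The beta subunits form the inner rings, where Psmb5, Psmb6 and Psmb7 carry the cutting sites. All 7 constitutive beta genes had positive log2 fold changes with the deposited scaling (0.10 to 0.24, median 0.15), and in 6 of the 7 all cLTP libraries lay above all DMSO libraries, beside 15% of all genes and 22.5% of the 4294 genes in the range of levels given above. With equal totals the median of the beta genes was 0.04, beside -0.11 for all genes. Psmb1, Psmb2 and Psmb3, structural subunits without a cutting site, had the largest values of the constitutive beta genes. Psmb2 had 759, 764 and 794 normalised reads in the cLTP libraries and 674, 683 and 612 in the DMSO libraries. The fold change was 1.18 (95% interval 1.04 to 1.33), with an adjusted p of 0.105 in limma and 0.0111 with the block. Psmb1 had 1295, 1257 and 1265 in cLTP and 1098, 1125 and 1127 in DMSO cultures, or 1272 ± 20.2 and 1117 ± 16.6 (SD, n = 3 each). The groups did not overlap, and the 1.14-fold difference (95% interval 1.03 to 1.26) had an adjusted p of 0.133 in limma and 0.0137 with the block. Psmb3 had 683, 738 and 836 in cLTP and 628, 638 and 673 in DMSO cultures, a 1.16-fold difference with an adjusted p of 0.216 in limma and 0.0172 with the block. RefSeq lists 10 copies or pseudogenes of Psmb3, the most of the 47 genes, with the same limit on shared reads.

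The block calls of Psma6, Psmb1, Psmb2 and Psmb3 were tied to the deposited scaling. With the block and equal totals their adjusted p-values in limma were 0.293, 0.363, 0.173 and 0.262, and with the block and quantile normalization 0.167, 0.306, 0.0663 and 0.0782.

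The catalytic genes differed less. Psmb5, the chymotrypsin-like subunit, had 707, 714 and 737 in cLTP and 655, 653 and 695 in DMSO cultures. Psmb7, the trypsin-like subunit, had 1325, 1299 and 1547 in cLTP and 1206, 1289 and 1289 in DMSO cultures. Both were without overlap, with limma adjusted p-values of 0.465 and 0.436. Psmb6, the caspase-like subunit, had 613, 541 and 628 in cLTP and 550, 549 and 564 in DMSO cultures, and it was the only constitutive beta gene whose groups overlapped. Psmb4 had 1471, 1327 and 1444 in cLTP and 1308, 1322 and 1185 in DMSO cultures, with no overlap and an adjusted p of 0.0655 with the block.

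The promoters of Psmb2 and Psmb3 are shown because these were the constitutive genes with the largest differences and their windows hold whole or partial matches to the site of the cyclic AMP response factor CREB (TGACGTCA). They run 5′ to 3′ from 250 bases before to 50 bases after the start of the gene, come from RefSeq on GRCr8, and are not on the build of the reads (rn6). Psmb2 lies at chr5:144254808-144255107 and Psmb3 at chr10:83193537-83193836, both on the plus strand. In Psmb2 capitals mark TGACGTCA at bases -90 to -83 from the start and 2 CCAAT boxes, the first on the minus strand, and in Psmb3 they mark the partial site TGACG at bases -80 to -76 and 2 CCAAT boxes. The constitutive genes with the next largest log2 fold changes, Psma6 (0.20) and Psmb1 (0.19), have no TGACG in this window. Psmb6, with the smallest of the constitutive beta genes (0.10), has it. A part of CREB in the differences was not tested.
Psmb2: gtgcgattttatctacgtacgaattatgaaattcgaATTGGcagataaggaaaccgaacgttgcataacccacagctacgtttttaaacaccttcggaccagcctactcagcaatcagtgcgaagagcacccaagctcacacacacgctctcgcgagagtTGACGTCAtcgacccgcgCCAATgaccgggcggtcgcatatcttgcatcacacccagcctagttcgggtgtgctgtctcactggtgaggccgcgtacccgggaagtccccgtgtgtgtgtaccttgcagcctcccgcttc
Psmb3: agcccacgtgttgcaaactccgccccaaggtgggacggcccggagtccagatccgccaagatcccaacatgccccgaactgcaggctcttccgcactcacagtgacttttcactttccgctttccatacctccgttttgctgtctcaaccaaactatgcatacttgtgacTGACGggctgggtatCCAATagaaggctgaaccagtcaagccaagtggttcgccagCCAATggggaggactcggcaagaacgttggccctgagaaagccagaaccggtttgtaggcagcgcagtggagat

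**Figure D3:**
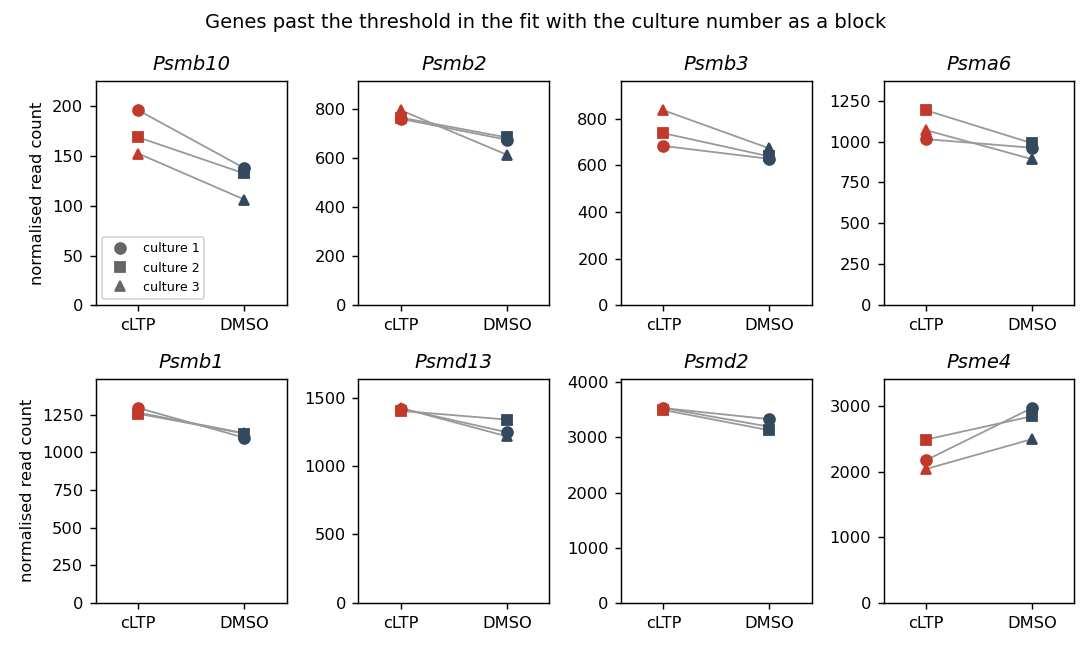
Normalised read count (vertical axis, from 0) in the cLTP (red) and DMSO (dark blue) libraries for the 8 genes past the threshold with the block, with symbols for cultures 1, 2 and 3 and lines joining same-numbered cultures. Every line of Psmb10 and of the 6 constitutive genes is higher at its cLTP end, and those of Psme4 are lower there, with 2173, 2487 and 2039 in cLTP and 2968, 2843 and 2494 in DMSO cultures.

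The inducible beta subunits replace the 3 catalytic ones in the immunoproteasome, which cuts peptides for presentation on MHC class I molecules, and the 3 genes did not move together. Psmb10, which replaces Psmb7, had 196, 169 and 153 normalised reads in the cLTP libraries and 138, 133 and 106 in the DMSO libraries, or 173 ± 22.0 and 126 ± 16.9 (SD, n = 3 each). The groups did not overlap, cLTP was higher in each of the 3 culture pairs, and this 1.37-fold difference (95% interval 1.09 to 1.72) was the largest upward one of the 47 genes. It had an adjusted p of 0.0975 in limma without a block, and without any 1 library the adjusted p was 0.088 to 0.303. With the block the adjusted p was 0.00415 (1.17-fold to 1.60-fold), and it was also under the threshold with the block and equal totals (0.0208) or quantile normalization (0.00214). Psmb8, which replaces Psmb5, had 21.4, 19.7 and 29.5 in cLTP and 26.6, 21.9 and 29.5 in DMSO cultures, from 19 to 30 reads per library. The groups overlapped and the limma adjusted p was 0.800. Psmb9, which replaces Psmb6, had 54.1, 59.1 and 38.7 in cLTP and 61.8, 60.6 and 29.5 in DMSO cultures. The lowest value of each group was that of culture 3, as for Psmb10, and the limma adjusted p was 0.953. Psmb8 and Psmb9 flank the peptide transporter gene Tap1 in the RefSeq annotation.

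The 6 ATPases form the ring that unfolds substrates. Their log2 fold changes were the most alike of any role, between 0.05 and 0.12 with a median of 0.11 as deposited and -0.01 with equal totals. Psmc2 had 1284, 1303 and 1276 in cLTP and 1179, 1182 and 1184 in DMSO cultures. The spread within these groups was small, but the 95% interval of the log2 fold change, -0.02 to 0.27, included 0. Psmc4 had 1070, 1042 and 1035 in cLTP and 974, 955 and 972 in DMSO cultures, Psmc1 had 1745, 1806 and 1748 in cLTP and 1672, 1644 and 1581 in DMSO cultures, and Psmc3 had 1301, 1246 and 1272 in cLTP and 1189, 1160 and 1218 in DMSO cultures. These 4 genes and Psmc5 (1027, 1072 and 1099 in cLTP, 1022, 996 and 1002 in DMSO cultures) had non-overlapping groups. Psmc6 overlapped, with 1269, 1133 and 1342 in cLTP and 1132, 1224 and 1254 in DMSO cultures. None of the 6 passed in limma without or with the block, and the lowest adjusted p-values, both for Psmc2, were 0.330 and 0.0945.

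The non-ATPase subunits of the 19S particle make its scaffold, its ubiquitin receptors and its deubiquitinase. The 11 genes had a median log2 fold change of 0.06, the lowest of the large roles (range -0.01 to 0.16), and -0.06 with equal totals. Psmd2, the largest scaffold subunit along with Psmd1, had 3528, 3495 and 3531 in cLTP and 3329, 3127 and 3191 in DMSO cultures. The groups were apart, with an adjusted p of 0.340 in limma and 0.0478 with the block. Psmd13 had 1420, 1403 and 1424 in cLTP and 1247, 1340 and 1217 in DMSO cultures, with adjusted p-values of 0.238 and 0.0361. With the block and equal totals neither gene passed (0.863 for Psmd2 and 0.598 for Psmd13), nor did they with quantile normalization (0.863 and 0.477). The ubiquitin receptor Psmd4 had 1022, 1070 and 1057 in cLTP and 977, 946 and 960 in DMSO cultures, and Psmd8 had 1162, 1131 and 1232 in cLTP and 1028, 1097 and 1115 in DMSO cultures, also apart, but neither passed with the block. The groups of the other 7 genes overlapped. Among these, Psmd14, the deubiquitinase of the particle, had 964, 946 and 933 in cLTP and 920, 982 and 887 in DMSO cultures. The scaffold gene Psmd1 had 2443, 2593 and 2554 in cLTP and 2430, 2538 and 2416 in DMSO cultures, where the difference was far smaller than that of Psmd2. Psmd12 had the one log2 fold change below 0 among the 31 constitutive genes (-0.01), with 956, 988 and 1006 in cLTP and 945, 974 and 1064 in DMSO cultures.

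The largest downward difference belonged to Psme4, which encodes PA200, a single-chain activator that caps the 20S core without ATP. It had 2173, 2487 and 2039 normalised reads in the cLTP libraries and 2968, 2843 and 2494 in the DMSO libraries, or 2233 ± 230 and 2768 ± 246 (SD, n = 3 each). The groups lay close but did not overlap, and cLTP was lower in each culture pair. The fold change was 0.806 (95% interval 0.688 to 0.944), with an adjusted p of 0.102 in limma, 0.0907 in edgeR and 0.0732 in DESeq2. With the block the fold change had an interval of 0.746 to 0.871 and an adjusted p of 0.000257. The call depended on culture 3 and on the scaling. The adjusted p was 0.0464 without DMSO 3, 0.0431 without culture 3 of both groups, 0.0171 with equal totals and 0.0246 with quantile normalization, and without any 1 library it was 0.0464 to 0.319. With the block it passed under both other scalings as well (9.96e-07 with equal totals and 2.36e-06 with quantile normalization). These scalings called more genes lower at large. With the block, 3997 of all 17315 genes were lower with equal totals and 2717 with quantile normalization, beside 1850 as deposited. Without the block the counts were 1322, 799 and 573.

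The promoter of Psme4 is given for comparison with those of the beta genes. It lies at chr14:108706393-108706692 on the plus strand of GRCr8 (RefSeq), over the same window, and capitals mark 4 overlapping GC boxes (GGGCGG on the minus strand) that run into a site of the ETS family (CCGGAAG). It holds no match to TGACG or CCAAT on either strand. GC boxes are not particular to it, as the windows of Psmb2 (bases -63 to -58) and Psmb3 (bases -231 to -226) also hold one, left in lower case.
Psme4: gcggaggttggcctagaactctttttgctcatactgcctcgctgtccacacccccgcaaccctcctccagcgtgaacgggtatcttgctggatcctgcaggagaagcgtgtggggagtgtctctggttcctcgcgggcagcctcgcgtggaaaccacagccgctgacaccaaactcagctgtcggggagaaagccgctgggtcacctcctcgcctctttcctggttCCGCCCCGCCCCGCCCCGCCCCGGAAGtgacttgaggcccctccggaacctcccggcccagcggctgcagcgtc

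The genes of the PA28 activators differed by culture more than by treatment. Psme1, the alpha subunit, had 479, 550 and 371 in cLTP and 453, 479 and 329 in DMSO cultures, and Psme2, the beta subunit, had 282, 302 and 262 in cLTP and 282, 290 and 226 in DMSO cultures. Both were lowest in culture 3 of each group, and the limma adjusted p-values were 0.716 and 0.748. Psme3, the nuclear gamma form, had 718, 738 and 642 in cLTP and 663, 668 and 640 in DMSO cultures, with a limma adjusted p of 0.621. Psme1 and Psme2 are separated by 1 gene (Emc9) in the RefSeq annotation. Psmf1, which encodes the inhibitor PI31, had 644, 600 and 644 in cLTP and 556, 621 and 553 in DMSO cultures, with overlap and a limma adjusted p of 0.440.

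**Figure D4:**
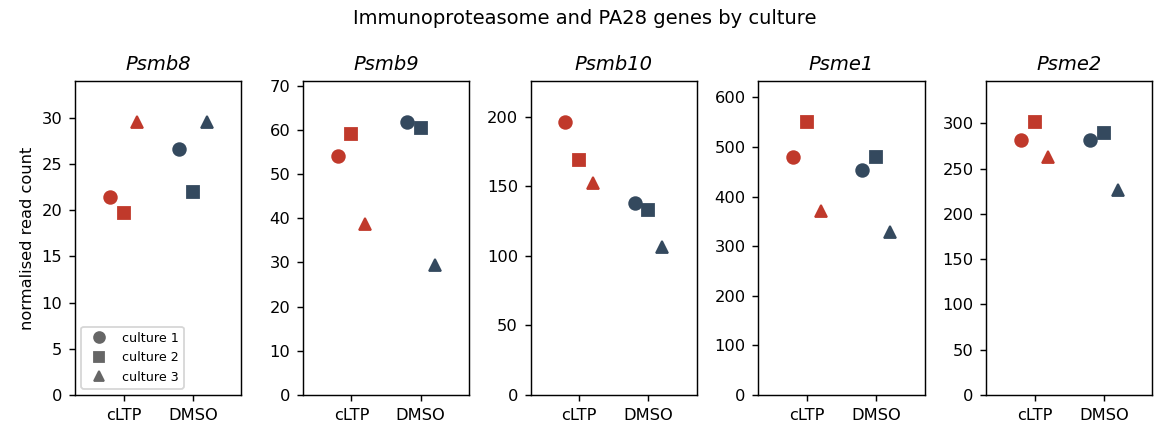
Normalised read count (vertical axis, from 0) of the 3 immunoproteasome genes and the PA28 genes Psme1 and Psme2 in each cLTP (red) and DMSO (dark blue) library, with a symbol for each culture. Culture 3 is lowest in both groups for Psmb9, Psmb10, Psme1 and Psme2, and for Psmb10 each cLTP value also lies above every DMSO value.

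Assembly chaperones leave the particle once it is built, and 2 of the 7 had all cLTP libraries below all DMSO libraries, beside 13.3% of all genes. Psmd5, which holds part of the ATPase ring during assembly of the 19S base, had 552, 535 and 566 in cLTP and 622, 610 and 614 in DMSO cultures. This 0.895-fold difference had an adjusted p of 0.246 in limma and 0.0770 with the block. With equal totals it passed (0.0484 without and 0.00226 with the block), and with quantile normalization it passed only with the block (0.0164). Psmg3, a chaperone of the alpha ring, had 151, 160 and 153 in cLTP and 163, 176 and 186 in DMSO cultures, with an adjusted p of 0.395 and, with the block, 0.236. It passed only with the block and equal totals (0.0368). Of all 17315 genes, equal totals called 1322 lower without and 3997 with the block, and quantile normalization with the block called 2717 lower. The other chaperones overlapped between groups, with log2 fold changes of 0.14 for Psmg1, 0.14 for Psmg2, -0.05 for Psmg4, 0.06 for Psmd9 and 0.01 for Psmd10. Psmc3ip, the gene that is no part of the proteasome, had 85.7, 60.1 and 59.0 in cLTP and 65.6, 65.8 and 61.1 in DMSO cultures, with a limma adjusted p of 0.892.

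Culture 3 of both groups lay above cultures 1 and 2 of both for 3 of the 47 genes (6.38%, beside 13.9% of all genes), namely Psma3l, Psmb8 and Psmd12. It lay below for 5 (10.6%, beside 13.2%), namely Psmb9, Psmd7, Psme1, Psme2 and Psme3. The 6 astrocyte markers summed to 182214, 191084 and 134893 in cLTP and 183905, 179969 and 116555 in DMSO cultures, and the 6 neuron markers to 43967, 38013 and 48016 in cLTP and 44582, 38782 and 48039 in DMSO cultures. Of the 6 microglia markers measured, Aif1 and Cx3cr1 were at 0 in cultures 1 and 2 of both groups. The part of this cell mixture in the levels of culture 3 was not tested. In limma the neuron, astrocyte, microglia and oligodendrocyte lists had no member called between cLTP and DMSO. With the block Snap25 of the neuron list, Slc1a3 and S100b of the astrocyte list and Olig2 of the oligodendrocyte list were higher in cLTP (adjusted p = 0.0248, 0.00116, 0.0122 and 0.00231), and the astrocyte gene Aldh1l1 was lower (0.0225). With the block 12.9% of all genes were higher and 10.7% lower. The part of these markers in the differences of the proteasome genes was not tested. In limma 1 of 4 endothelial and mural markers tested, Pdgfrb, was lower in cLTP, and Cldn5 was at 0 in all DMSO libraries.

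Proteins that bind or act on the proteasome without carrying a Psm symbol included 3 genes that passed the test. Of 17 such genes, 3 rose and 0 fell in limma (6 and 0 with the block). Of all genes tested, 5.71% were higher and 3.31% lower in limma, and 12.9% and 10.7% with the block. Zfand5, which binds the 26S proteasome and raises its activity, had 5054, 4597 and 5082 normalised reads in the cLTP libraries and 2749, 2667 and 2673 in the DMSO libraries. It rose 1.82-fold (95% interval 1.62 to 2.05) with a limma adjusted p of 0.000135. Its stress-induced relative Zfand2a, which encodes the proteasome-binding protein AIRAP, had 2143, 2109 and 1879 in cLTP and 1162, 1228 and 1018 in DMSO cultures, and rose 1.80-fold (1.56 to 2.09, adjusted p = 0.000553). Txnl1, a thioredoxin-like protein bound to the 19S particle, had 1671, 1773 and 1733 in cLTP and 1326, 1323 and 1330 in DMSO cultures, and rose by 0.38 on the log2 scale (0.23 to 0.53, adjusted p = 0.00806). All 3 stayed under the threshold without any 1 library and under each other scaling and fit. Akirin2, which brings proteasomes into the nucleus, had 1160, 1292 and 1028 in cLTP and 977, 1003 and 939 in DMSO cultures, with an adjusted p of 0.163 in limma and 0.00420 with the block. With the block Akirin2 did not pass with equal totals (0.102) or quantile normalization (0.0503). The subunits and the maturation factor that lie outside the name pattern resembled the constitutive genes and did not pass. Adrm1, a ubiquitin receptor, had a log2 fold change of 0.06, Sem1, the smallest 19S subunit, 0.13, and Pomp, the maturation factor of the core, 0.11.

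Genes that control transcription of the proteasome were mixed. Nfe2l1, the factor that restores proteasome genes when the protease is inhibited, had 2132, 2258 and 2071 in cLTP and 2278, 2441 and 2262 in DMSO cultures. All its cLTP libraries lay below all DMSO libraries, with an adjusted p of 0.456 in limma and 0.0975 with the block. Of the 13 genes on this list 3 rose and 0 fell, all 3 of them partners or rivals of the Nfe2l factors at their DNA sites (5 and 3 with the block). The shares of all genes were 5.71% higher and 3.31% lower, and 12.9% and 10.7% with the block. The small Maf gene Maff had 1109, 1326 and 905 in cLTP and 98.0, 86.9 and 55.1 in DMSO cultures, a 14.0-fold rise (9.83 to 19.9, adjusted p = 2.32e-05). Mafk had 696, 636 and 638 in cLTP and 362, 320 and 293 in DMSO cultures, a 2.02-fold rise (adjusted p = 0.000249). Bach1, a repressor that pairs with small Maf proteins, had 1172, 1222 and 850 in cLTP and 474, 386 and 312 in DMSO cultures, a 2.77-fold rise (adjusted p = 0.00147). Mafg had 824, 824 and 804 in cLTP and 720, 683 and 633 in DMSO cultures, with adjusted p-values of 0.0671 and, with the block, 0.00280. With the block Mafg did not pass with equal totals (0.0624) but passed with quantile normalization (0.0189).

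Of the genes that supply ubiquitin and the enzymes that activate it, 0 of 7 rows passed in limma, beside 5.71% of all genes higher and 3.31% lower. There were 3 rows at an unadjusted p under 0.05, beside 21% of all genes. In edgeR 1 row was called (11.5% of all genes), and in DESeq2 2 rows (7.83%). With the block 3 were higher, where 12.9% of all genes were higher and 10.7% lower. The polyubiquitin gene Ubb had 14286, 13394 and 16173 in cLTP and 11146, 11434 and 12527 in DMSO cultures. The groups did not overlap, and the log2 fold change of 0.32 (0.09 to 0.55) had an adjusted p of 0.0956 in limma, 0.0249 in DESeq2 and 3.56e-05 with the block. With the block Ubb passed with equal totals (0.000921) but not with quantile normalization (0.198). The main row of Rps27a, which encodes ubiquitin fused to a ribosomal protein, had 2038, 2148 and 1877 in cLTP and 1727, 1845 and 1676 in DMSO cultures, with adjusted p-values of 0.174 and, with the block, 0.00406. With the block this row did not pass with equal totals (0.187) or quantile normalization (0.212). Vcp, the ATPase that extracts ubiquitin-tagged proteins for the proteasome, and 10 of its cofactors gave 0 calls in limma (1 at an unadjusted p under 0.05), edgeR and DESeq2 and 2 higher with the block, Vcp itself and the ubiquitin ligase Ube4b. Of 8 antigen processing genes, which work downstream of the immunoproteasome, 0 rose and 1 fell in limma (1 and 1 with the block). Irf1, an interferon-responsive factor that drives immunoproteasome genes, had 50.7, 46.6 and 57.0 in cLTP and 202, 188 and 131 in DMSO cultures, and fell to 0.305-fold (0.228 to 0.406, adjusted p = 0.000465). B2m, the light chain of MHC class I, had 7513, 7909 and 6726 in cLTP and 6857, 7010 and 5283 in DMSO cultures, with overlap, and adjusted p-values of 0.366 and, with the block, 0.00293. The transporter genes Tap1 and Tap2 had log2 fold changes of 0.06 and 0.04.

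**Figure D5:**
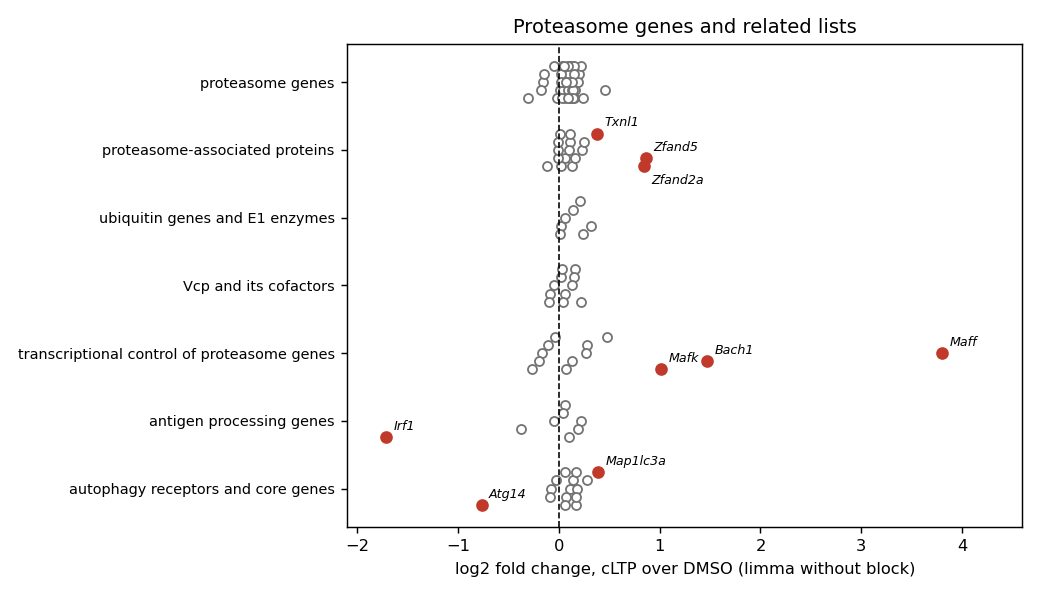
Log2 fold change of cLTP over DMSO (horizontal axis) for the 47 proteasome genes and for each gene of 6 related lists (vertical axis). Red points with names passed the threshold in limma without a block, open points did not, and the dashed line is the median of all genes tested. The proteasome genes form a compact cloud with no red point, while Maff lies farthest right at 3.81 and Irf1 farthest left at -1.71.

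Promoters in RefSeq were found for 43 of the 47 genes, and both strands were searched for short motifs and set beside 33469 promoters of the same length. Of the motifs of general promoters, the GC box GGGCGG was found in 72.1% (33.1% of all promoters), CCAAT in 51.2% (37.5%) and the ETS site CCGGAAG in 34.9% (8.75%). The whole CREB site TGACGTCA was found in 1 of the 43, Psmb2 (2.33%, beside 1.83%), and its partial site TGACG, which lies within the whole site, in 15 (34.9%, beside 21.2%). The median log2 fold change was 0.12 for those 15 genes and 0.09 for the rest. The core of the antioxidant response element bound by Nfe2l factors with small Maf proteins, TGANNNNGC, was found in 22 (51.2%, beside 40.5%), with medians of 0.10 with and 0.10 without it. The AP-1 site TGANTCA was found in 2.33% (7.33%), a core of the heat shock element, GAANNTTC, in 6.98% (8.59%), the E-box CACGTG in 11.6% (6.42%) and the palindrome of the factor Nrf1 in 2.33% (0.852%). These matches are letters in a window and show no binding.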

How the data were processed

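Polyadenylated RNA of 3 cLTP and 3 DMSO cultures was sequenced from strand-specific libraries, per the labels' protocols. bcl2fastq, STAR, DESeq2 and the rat build rn6 were used, per the submitters' processing notes, without versions. The sources used here do not give the counting tool, its use of strand or the annotation. The values deposited by the authors are a signal per gene, namely read counts scaled by 1 size factor per library: 100% of those above 0 gave whole reads, within 0.01, once divided by the worth of 1 read. At this depth 3 reads correspond to 2.63 to 3.38. A part of the labels' text that names sorted cells of operated animals does not match the cultures and was not used.

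Genes with a mean of at least 1 (17315) were tested with R 4.3.3 and limma 3.58.1 (eBayes, trend and robust) on log2(value + 1), two-sided, with Benjamini-Hochberg adjustment. Fold changes on this scale understate those of low genes. edgeR 4.0.16 (quasi-likelihood, TMM, filterByExpr) and DESeq2 1.42.0 on the recovered reads, other scalings and filters, and fits without 1 library were alternatives, and the scripts were tested on simulated counts. After removal of group means, same-numbered cLTP and DMSO libraries correlated across genes with r = 0.22, 0.30 and 0.54, each above the limit of 0.1, so the culture number was taken to pair the libraries, which the labels do not state. Differently numbered pairs of cultures 1 and 2 also correlated above that limit (0.16 for cLTP 1 with DMSO 2 and 0.19 for cLTP 2 with DMSO 1), so the check tells culture 3 from the others more clearly than it tells cultures 1 and 2 apart. The blocked fit is given for each proteasome gene and marker whose call it changes, and for the related lists as counts.

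The 47 genes, the lists and the tests were chosen with earlier results of these data known. All proteasome genes could be named, and up to 4 genes with the lowest p of each related list, while Adrm1, Sem1, Pomp, Nfe2l1, Tap1 and Tap2 were named for their role and after their values were seen. RefSeq (GRCr8) gave promoters, neighbours and pseudogenes by symbol (46 genes) or synonym (1 gene), and 19 of the 47 genes have pseudogenes or copies there, 52 in all. Not analysed here were Paaf1, Ubxn7, Itgam and Pecam1. A gene of the related lists is counted in its list but is not reported here by name.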

Additional observations from a re-analysis of the deposited data

How the results depend on the processing

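Alternatives were run one at a time, and those that join the block with another scaling, the block in edgeR and the values relative to the median gene were chosen after seeing the data. With the replicate block, 7 proteasome genes were called higher and 1 lower, and the paired fit in edgeR called 7 and 1. With the block and equal totals 1 was higher and 3 lower, and with the block and quantile normalization 1 and 2. Without a block, equal totals called 2 lower and quantile normalization 1, and leaving out 1 library called 0 to 1 lower, or 1 without culture 3 of both groups. Over all genes, 988 were higher and 573 lower. The block called 2225 and 1850, in edgeR 2168 and 1956. The block with quantile normalization called 1627 and 2717, the block with equal totals 3997 lower, equal totals 1322 lower, and leaving out 1 library 227 to 471 lower. Of the related lists 7 genes were higher and 2 lower, with the block 23 and 5 (24 and 5 in edgeR), with equal totals 4 lower, and with the block and either other scaling 10 lower. The proteasome median was -0.019 with equal totals and 0.027 with quantile normalization, with or without the block, and 0.091 to 0.112 without 1 library. Relative to the median gene it was 0.077 with quantile normalization, with or without the block, and 0.092 to 0.113 without 1 library.

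The log2 fold changes relative to the median gene that changed sign belonged to genes that passed in none of the fits without a block. With quantile normalization (the same with the block) they were -0.00686 for Psmc6, -0.050 for Psmd1, -0.010 for Psmd3, -0.014 for Psmd6, -0.000609 for Psmd7, -0.036 for Psma3l, -0.016 for Psma4, 0.023 for Psmg4 and -0.00543 for Vcp. Psmd10 was -0.0018 without a filter, -0.018 in edgeR, -0.024 in DESeq2 and -0.013 in edgeR with the block, and Psmb9 was -0.011 in edgeR and -0.013 in DESeq2. Without culture 3 of both groups Psmd10 was -0.131, Psmd12 0.018 and Psmb9 -0.112. Over the fits without 1 library the values ran between -0.0017 and 0.112 for Psmc6, -0.138 and 0.156 for Psmd10, -0.052 and 0.036 for Psmd12, -0.0038 and 0.074 for Psmd14, -0.022 and 0.065 for Psmd6, and -0.012 and 0.054 for Psma3l. They ran between -0.191 and 0.028 for Psmg4, -0.015 and 0.309 for Psme1, -0.020 and 0.161 for Psme2, -0.291 and 0.231 for Psmb9, and -0.113 and 0.162 for Psmc3ip. The cause was not tested. Depth limits Psmb8, with 19 to 30 reads, most.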

Other observations

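Autophagy is the other route by which cells degrade proteins, and its genes were also mixed. Of 15 autophagy receptors and core genes, 1 rose and 1 fell in limma (6 and 1 with the block). The shares of all genes were 5.71% higher and 3.31% lower in limma, and 12.9% and 10.7% with the block. Map1lc3a, which encodes an LC3 protein of the autophagosome membrane, had 2108, 2023 and 2190 normalised reads in the cLTP libraries and 1599, 1601 and 1622 in the DMSO libraries, and rose 1.31-fold (95% interval 1.18 to 1.46, adjusted p = 0.00806). Atg14, a subunit of the lipid kinase complex that starts the autophagosome, had 145, 138 and 106 in cLTP and 206, 233 and 221 in DMSO cultures, and fell to 0.587-fold (0.472 to 0.730, adjusted p = 0.00905). Both held without any 1 library, with adjusted p-values of 0.0149 to 0.0473 for Map1lc3a and 0.0160 to 0.0462 for Atg14. The ubiquitin-binding receptor Sqstm1, named after its values were seen, had 9710, 9033 and 8595 in cLTP and 8511, 8431 and 7440 in DMSO cultures, with an adjusted p of 0.356 in limma and 0.0101 with the block. With the block Sqstm1 did not pass with equal totals (0.430) or quantile normalization (0.173), where its log2 fold change was -0.08.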
